A study of Drosophila melanogaster with 6 samples.

Results

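The genes described here are 10 isotypes of actin and tubulin: the actins *Act5C*, *Act42A*, *Act57B*, *Act79B* and *Act87E*, the alpha tubulins *alphaTub84B* and *alphaTub84D*, and the beta tubulins *betaTub56D*, *betaTub60D* and *betaTub97EF*. They were found by symbol in a table of 14540 rows, where each of the 10 has a row of its own. RNA-seq compared 2 groups of *Drosophila* cells, S2 and SIN3 187HA, with 3 biological replicates each. S2 is a cultured line of wild type genotype that came from late embryos and has features of blood cells. SIN3 187HA cells are S2 cells stably transfected with a SIN3 187 transgene that carries an HA tag and is driven by the copper-responsive metallothionein promoter. Both groups received CuSO4, at 0.07 µM for 48 h in the labels of replicate 1 of either group, while the study's methods give the dose in another unit. The transfected cells were kept in Geneticin, and no cells with an empty vector were analysed here, so the transgene and the history of the transfected line cannot be told apart. The question for the isotypes is which of them these cells use, and whether that use differs between the groups.

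Actin monomers assemble into the filaments of the cell cortex, of protrusions and of muscle, and alpha and beta tubulin assemble as heterodimers into microtubules. Flies, like other animals, encode each of these proteins in a small family of very similar genes. *Act5C* and *Act42A* encode the cytoplasmic actins. *Act57B*, *Act87E* and *Act79B* encode actins known mainly from larval and adult muscles. *alphaTub84B* and *betaTub56D* are the ubiquitous tubulins, *betaTub60D* is known for its expression during differentiation, for example in muscle, and *betaTub97EF* is known to be more abundant at low temperature.

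The authors combined the 3 replicates of a group, so every level is 1 FPKM value per gene and group (FPKM being fragments scaled by transcript length and by the number of mapped fragments). The spread between replicates is therefore not known here. No SD, interval or test is given, and a gene is counted as past 2-fold from its ratio alone. *Sin3A*, the gene of the transgene, stood at 56.9 FPKM in S2 and 2319 FPKM in SIN3 187HA cells. The steps between the lowest values correspond to a depth per library of roughly 15.3 M fragments in S2 and 15.9 M in SIN3 187HA cells. This takes the 3 libraries of a group as equal in depth. Of 8 hemocyte markers, the scavenger receptor *crq* had 86.0 FPKM in S2 and 107 FPKM in SIN3 187HA cells, and *Hml* was under 1 FPKM in both. The list summed to 458 FPKM in S2 and 262 FPKM in SIN3 187HA cells, and 4 of the 7 markers above a mean of 1 FPKM were at least 2-fold lower there, against 12.1% of all genes above that mean. Of these 4, the phagocytosis receptor *eater* had 50.2 FPKM in S2 and 2.30 FPKM in SIN3 187HA cells, and the peroxidasin *Pxn* had 133 and 29.3 FPKM, while *crq* was the only 1 of the 7 with a log2 ratio above 0. In cultures measured in bulk, fewer cells of a kind and less RNA per cell cannot be told apart, and the part of this difference in the isotype values was not tested. Of 8 muscle markers, 5 were under 1 FPKM in both groups. Their sum of 21.3 FPKM in S2 and 13.5 FPKM in SIN3 187HA cells was mostly *Mef2*, a transcription factor of muscle development, at 18.0 and 8.87 FPKM. *Mlc2* (1.58 and 2.02 FPKM), *Mlp84B* (0.418 and 1.51 FPKM), *Tm2* and *wupA* were higher in SIN3 187HA cells. *Mhc*, *Mlc1* and *up*, all under 1 FPKM, were lower there.

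6 isotypes had at least 66.9 FPKM in both groups, and their levels differed by less than 2-fold. *Act5C* was highest, followed by *alphaTub84B*, *Act42A*, *betaTub56D*, *betaTub60D* and *alphaTub84D* in S2 cells. SIN3 187HA cells had the same order except that *betaTub56D* stood above *Act42A*. In S2 cells these last 2 genes were 984 FPKM for *Act42A* and 982 FPKM for *betaTub56D*, a difference that cannot be judged without replicate values. The 10 isotypes together held 0.784% of the FPKM sum of all rows in S2 and 0.735% in SIN3 187HA cells.

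**Figure D1:**
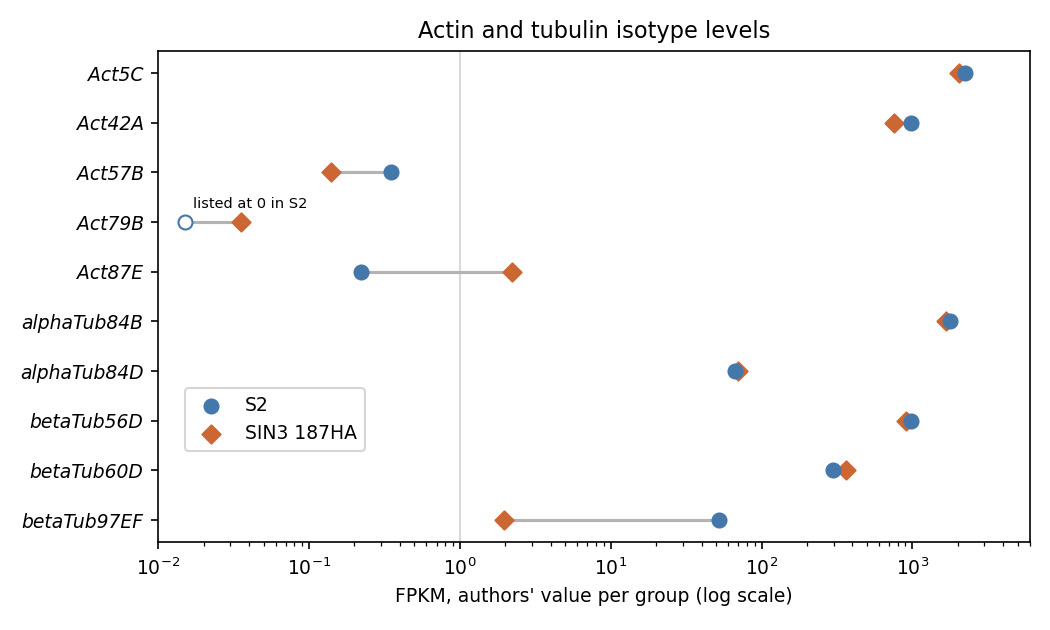
FPKM of the 10 isotypes on a log scale, with a circle for S2 and a diamond for SIN3 187HA cells. Each mark is the authors' single value for a group, without an error bar. The open circle at the left marks *Act79B*, listed at 0 in S2, which has no place on a log axis, and the line at 1 is the minimum mean used for ratios. The symbols lie nearly on each other for the abundant isotypes and far apart for *betaTub97EF* and *Act87E*.

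Cytoplasmic actin was slightly lower in SIN3 187HA cells. All genes with a mean of at least 100 FPKM had a median log2 ratio of -0.13. *Act5C* lies on chromosome X of dm3 from 5794894 to 5799261. Its level was 2242 FPKM in S2 and 2047 FPKM in SIN3 187HA cells, a log2 ratio of -0.13. Among all rows it ranked 75 in S2 and 86 in SIN3 187HA cells. *Act42A*, on 2R from 1901415 to 1903194, had 984 FPKM in S2 and 753 FPKM in SIN3 187HA cells, a log2 ratio of -0.39. The ratio of *Act5C* to *Act42A* was thus 2.28 in S2 and 2.72 in SIN3 187HA cells. As shares of the sum over the 5 actins, *Act5C* made up 69.5% in S2 and 73.1% in SIN3 187HA cells, and *Act42A* 30.5% and 26.9%. The sum itself was 3227 FPKM in S2 and 2802 FPKM in SIN3 187HA cells, a log2 ratio of -0.20.

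The muscle actins were nearly silent. Only 1 of them, *Act87E*, reached a mean of 1 FPKM, and it differed by more than 2-fold. On 3R, *Act87E* spans 9251707 to 9253811. Its level was 0.221 FPKM in S2 and 2.20 FPKM in SIN3 187HA cells, a 9.95-fold higher level with a log2 ratio of 3.32. In fragments, this is roughly 14.7 over the 3 S2 libraries and 152 over the 3 SIN3 187HA libraries, so the size of the ratio is coarse. With a pseudocount of 1 FPKM its log2 ratio was 1.39. *Act57B*, on 2R from 16831533 to 16833945, went the other way at a lower level, with 0.348 FPKM in S2 and 0.139 FPKM in SIN3 187HA cells. That corresponds to roughly 24.3 and 10.1 fragments. *Act79B*, on 3L from 21978310 to 21980290, was listed at 0 in S2 and had 0.0354 FPKM, roughly 2.33 fragments, in SIN3 187HA cells. The 3 muscle actins added up to 0.0176% of all actin in S2 and 0.0849% in SIN3 187HA cells.

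The sarcomere genes were low too. Of a list of 21, 14 were under 1 FPKM in both groups, among them *Mhc*, the muscle myosin heavy chain. A mean of at least 1 FPKM, and above 0 in each group, was reached by 5 of the 21 and by 8093 of all 14540 rows. With no minimum mean, 6 of the list were at least 2-fold higher in SIN3 187HA cells and 2 at least 2-fold lower. Of all 11225 genes above 0 in both groups, 2174 were at least 2-fold higher and 1501 lower. In the reference annotation each of the 5 actin genes encodes a protein of 376 residues. Reads from such similar genes can be assigned to the wrong copy. The share of the *Act87E* and *Act57B* values that came from the far more abundant cytoplasmic actins was not tested.

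**Figure D2:**
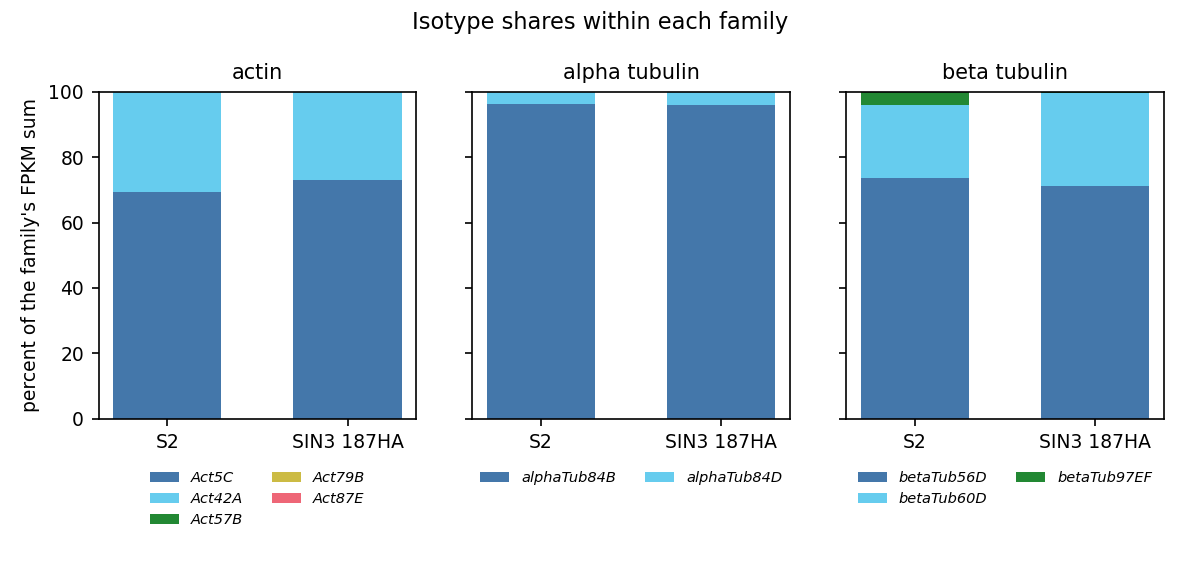
Share of each isotype in the FPKM sum of its family, as stacked bars from 0 to 100 percent for S2 and SIN3 187HA cells. The alpha tubulin bars are nearly the same, *Act5C* takes a larger part of actin in SIN3 187HA cells, and the *betaTub97EF* segment of S2 is almost gone there. The muscle actins are too small to see.

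Alpha tubulin was nearly the same in both groups. *alphaTub84B*, on 3R from 2912321 to 2914561, had 1777 FPKM in S2 and 1674 FPKM in SIN3 187HA cells, a log2 ratio of -0.09. *alphaTub84D*, which encodes a protein of the same 450 residues in length and lies on 3R from 3356478 to 3358454, had 66.9 FPKM in S2 and 69.4 FPKM in SIN3 187HA cells, a log2 ratio of 0.05. *alphaTub84B* made up 96.4% of the pair in S2 and 96.0% in SIN3 187HA cells. Because the coding sequences of the pair are so similar, the division of reads between them is uncertain.

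Beta tubulin was the family with the largest difference in isotype use. *betaTub56D*, on 2R from 15334824 to 15339122, had 982 FPKM in S2 and 908 FPKM in SIN3 187HA cells, a log2 ratio of -0.11. *betaTub60D*, on 2R from 20193405 to 20200626, had 298 FPKM in S2 and 363 FPKM in SIN3 187HA cells, a log2 ratio of 0.28. *betaTub97EF*, on 3R from 23792730 to 23814106, had 51.9 FPKM in S2 and 1.96 FPKM in SIN3 187HA cells. This is a 26.5-fold lower level, with a log2 ratio of -4.73. The values correspond to roughly 3575 fragments over the S2 libraries and 140 over the SIN3 187HA libraries. *betaTub97EF* thus ranked 2000 among all rows in S2 and 7514 in SIN3 187HA cells.

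The sum of the 3 beta tubulins was 1332 FPKM in S2 and 1273 FPKM in SIN3 187HA cells, a log2 ratio of -0.07. Within it *betaTub97EF* went from 3.90% in S2 to 0.154% in SIN3 187HA cells. *betaTub60D* went from 22.4% to 28.5%, and *betaTub56D* from 73.7% to 71.3%. The ratio of *betaTub60D* to *betaTub97EF* was 5.75 in S2 and 185 in SIN3 187HA cells. The ratio of the alpha to the beta tubulin sum was 1.38 in S2 and 1.37 in SIN3 187HA cells. The ratio of actin to tubulin was 1.02 in S2 and 0.929 in SIN3 187HA cells.

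Among all genes with a mean of at least 1 FPKM over both groups, and above 0 in each, 12.6% were at least 2-fold higher in SIN3 187HA cells, 12.1% were at least 2-fold lower, and 24.6% were past 2-fold in either direction. Of the 10 isotypes, 8 passed this minimum. *Act57B* and *Act79B* did not, and *Act87E* passed only through its level in SIN3 187HA cells. 1 of the 8 was past 2-fold higher (*Act87E*) and 1 lower (*betaTub97EF*), which is close to the share of all genes. The log2 ratios of the other 6 ran from -0.39 to 0.28. For comparison, 40.3% of the 995 genes with a mean of at least 100 FPKM had a log2 ratio no larger in size than that of *Act42A*. The median log2 ratio of all genes was -0.04, with quartiles at -0.49 and 0.45. Of 8093 genes, 87 had a lower log2 ratio than *betaTub97EF*.

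**Figure D3:**
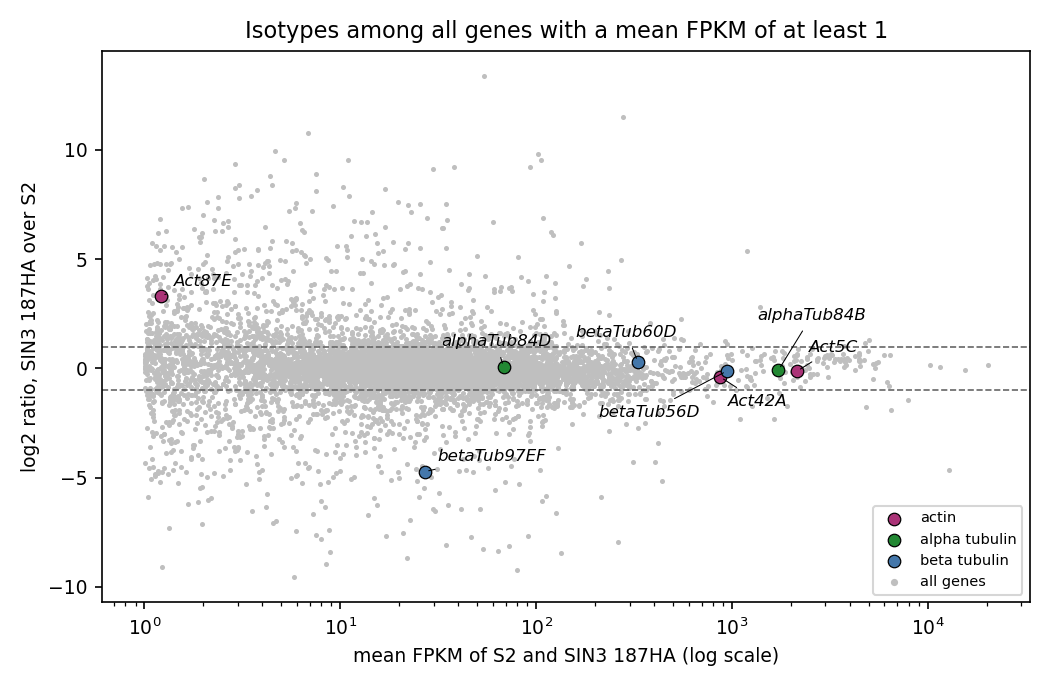
Log2 ratio of SIN3 187HA over S2 against the mean FPKM of both groups (log scale) for the 8093 genes with a mean of at least 1 FPKM and above 0 in both groups, in grey, with 8 isotypes marked by family. Dashed lines mark 2-fold. 6 isotypes lie between the dashed lines, *betaTub97EF* lies at -4.73 and *Act87E* at 3.32.

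Isotypes of the same families that are not among the 10 were also measured. *alphaTub85E*, known from testis and sensory organs, had 4.87 FPKM in S2 and 0.745 FPKM in SIN3 187HA cells, a log2 ratio of -2.71. The maternal *alphaTub67C* had 0.433 FPKM in S2 and 2.91 FPKM in SIN3 187HA cells, a log2 ratio of 2.75. *Act88F*, the actin of the indirect flight muscle, was under 0.1 FPKM in both groups. The row that the testis isotype *betaTub85D* shares with *Task7* had 0.959 and 0.524 FPKM, and the part of either gene is not known. For gamma tubulin, which nucleates microtubules, *gammaTub23C* had 49.2 FPKM in S2 and 29.6 FPKM in SIN3 187HA cells, a log2 ratio of -0.73, whereas the ovarian *gammaTub37C* had 0.542 and 1.31 FPKM. With the alpha isotypes added to the sum, the share of *alphaTub84B* differed by -0.28 percentage points between the groups, where the pair alone gave -0.36.

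To set each isotype beside its chromosomal surroundings, the 12 nearest genes above the minimum on either side were examined. No other row overlapped the locus of any of the 10. The median log2 ratio of the 24 neighbours ran from -0.31 for *Act87E* to 0.38 for *Act79B*. *betaTub97EF*, at -4.73, lay within the range of its own neighbours (-8.44 to 4.24) but far below their median of -0.12. *CG4849*, 49 bp away, had 28.5 FPKM in S2 and 24.5 FPKM in SIN3 187HA cells, a log2 ratio of -0.22. On the other side the nearest gene above the minimum was *CG43125*, 274 kb away, with a log2 ratio of -2.34. The 4 genes of that distant group (*CG43125*, *CG43124*, *CG34436* and *CG34437*) had log2 ratios from -8.44 to -2.34. The median of the neighbours was -0.55 with 6 genes on each side and 0.10 with 25. Around *Act87E*, the nearest gene *yrt*, 777 bp away, had a log2 ratio of 0.11, and 17 of the 24 neighbours were below 0. *Act42A* had a log2 ratio of -0.39 where the median of its neighbours was 0.28. Of the 24, 11 were past 2-fold higher and 0 past 2-fold lower, beside 12.6% and 12.1% of all genes. Among the 11, *ap*, *CG7881*, *CR44127*, *CG14589* and *CG30431* were under 1 FPKM in S2. They passed the minimum only through their levels in SIN3 187HA cells. The median was 0.05 with 6 genes on each side, where 3 of 12 were past 2-fold higher, and 0.06 with 25. Most of the higher neighbours formed an unbroken run at lower coordinates, from *vlc* to *CR44127*. The nearest genes, *Src42A* and *Pngl*, had log2 ratios of 0.06 and -0.25. The part of the surroundings in these values was not tested.

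**Figure D4:**
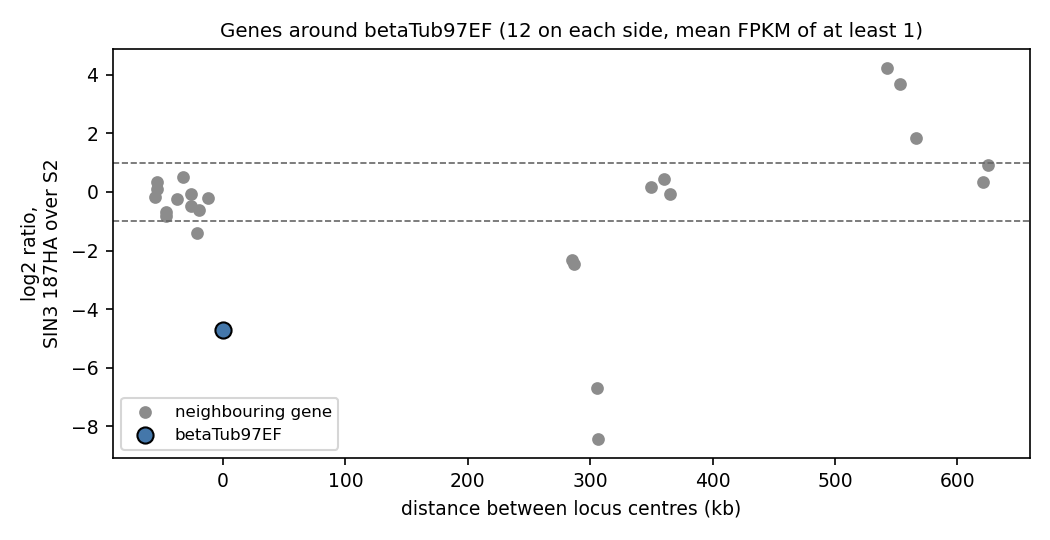
Log2 ratio of SIN3 187HA over S2 for *betaTub97EF* (blue) and its 24 nearest genes with a mean of at least 1 FPKM (grey), by the distance in kb between locus centres. Dashed lines mark 2-fold. The 12 genes to the left lie from -1.40 to 0.50, and the 4 genes nearest to the right lie from -8.44 to -2.34.

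Actin and tubulin are folded by the chaperonin CCT, to which prefoldin delivers them. All 8 CCT subunits were below 0 on the log2 scale, *Tcp-1zeta* only before centring, with a median log2 ratio of -0.69 and a summed level of 2718 FPKM in S2 and 1700 FPKM in SIN3 187HA cells. *Cct5* (362 and 158 FPKM) and *Tcp-1eta* (405 and 181 FPKM) were past 2-fold lower, 2 of 8 beside 12.1% of all genes. The most abundant subunit, *CG5525*, had 492 FPKM in S2 and 287 FPKM in SIN3 187HA cells. *Tcp-1zeta* had a log2 ratio of -0.01, which is above 0 once log2 ratios are centred on the median of all genes (-0.04). The 6 prefoldin subunits were below 0 as well, with a median of -0.36, and none was past 2-fold. *CG13993*, with the highest mean of both groups, had 158 and 97.1 FPKM. Among all genes with a mean of at least 100 FPKM, the log2 ratio had a median of -0.13 and quartiles of -0.59 and 0.37. Among 8 tubulin cofactors and tubulin-modifying enzymes the median was -0.11 and 1 gene was past 2-fold, the deacetylase *HDAC6*, which was higher (7.44 FPKM in S2 and 15.9 FPKM in SIN3 187HA cells). The most abundant row of this list, that of *CG1890* and *CG1896*, had 137 and 133 FPKM. These lists were not tested against other genes.

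The counts past 2-fold in the lists of filament genes stand beside 24.6% of all genes past 2-fold in either direction. With a mean of at least 10 FPKM, that share of all genes was 17.3%. Of 14 actin-related proteins and Arp2/3 subunits above the minimum, 1 was past it. This was *Arpc3B*, a subunit of the branching complex Arp2/3, which was lower, with 46.3 FPKM in S2 and 18.9 FPKM in SIN3 187HA cells. *Arpc1*, the most abundant, had 309 and 529 FPKM. The median of this list was 0.06. Of 14 genes of monomer binding and filament turnover (median -0.01), *cpb*, the beta subunit of capping protein, was past 2-fold lower (114 and 53.4 FPKM), and *jar*, the myosin VI motor, was past 2-fold higher (8.29 and 18.9 FPKM). Cofilin, encoded by *tsr*, had the highest mean of both groups in the list, with 1402 and 1078 FPKM. Profilin, encoded by *chic* and added here after its values were seen, had 1538 FPKM in S2 and 858 FPKM in SIN3 187HA cells, a log2 ratio of -0.84. Of 13 nucleators and their regulators (median -0.01), *spir* (18.9 and 1.09 FPKM) and the formin *form3* (16.1 and 2.03 FPKM) were past 2-fold lower. Both lie below a mean of 10 FPKM and were named after their values were seen. *HSPC300*, a subunit of the SCAR complex and the most abundant of this list, had 113 and 106 FPKM. The 8 nonmuscle myosin and tropomyosin genes were all within 2-fold, with a median of -0.36. The regulatory light chain *sqh* had the highest mean of both groups, with 303 and 351 FPKM.

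**Figure D5:**
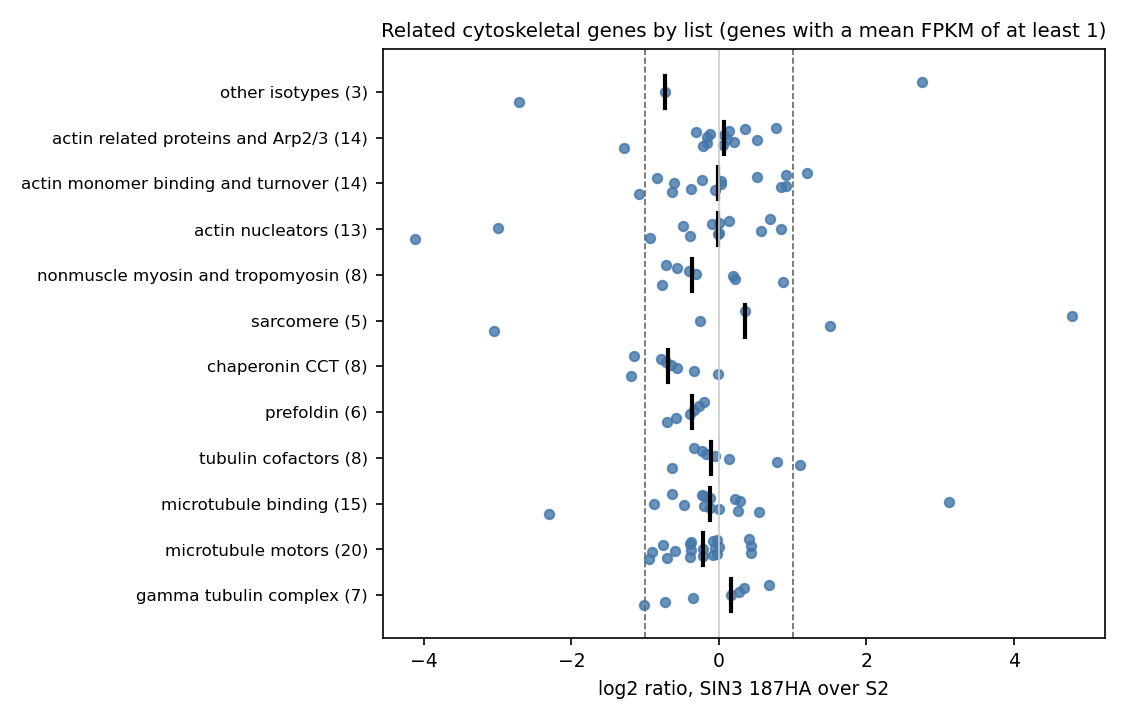
Log2 ratio of SIN3 187HA over S2 for single genes (points) of 12 lists of related genes, each with a mean of at least 1 FPKM, and the median of each list (black bar). The number of genes plotted stands beside the list name, and dashed lines mark 2-fold. All points of the chaperonin and prefoldin lists lie below 0 (*Tcp-1zeta*, at -0.01, not after centring on the median of all genes), whereas the other lists have points on both sides of 0.

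In the sarcomere list, the 5 genes above the minimum lay on both sides of 0. *Zasp52*, which also acts at muscle attachment sites, had 50.6 FPKM in S2 and 144 FPKM in SIN3 187HA cells. *Strn-Mlck*, a myosin light chain kinase, had 59.5 and 7.21 FPKM. *Mlp60A*, chosen after its values were seen, had 0.0841 and 2.32 FPKM, and passed the minimum only through its level in SIN3 187HA cells. Only 1 gene of this list apart from *Zasp52* and *Strn-Mlck*, *Actn*, was above 10 FPKM in either group, and it shares its row with *usp*.

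Of 20 motor genes, 0 were past 2-fold, beside 24.6% of all genes, and their median was -0.21. Among all genes with a mean of at least 10 FPKM, which most of the motor genes reached, 17.3% were past 2-fold. The most abundant was the kinesin light chain *Klc*, with 141 FPKM in S2 and 108 FPKM in SIN3 187HA cells. Of 15 microtubule-binding genes (median -0.12), *shot*, the spectraplakin that links actin and microtubules, was past 2-fold lower (127 and 25.6 FPKM). The row that *tau* shares with *CG34294*, also named after its values were seen, was past 2-fold higher (0.218 and 1.89 FPKM). That row passed the minimum only through its level in SIN3 187HA cells. The sum of 4 neuron markers was 2.65 FPKM in S2 and 10.2 FPKM in SIN3 187HA cells. It was mostly *elav* (2.39 and 6.74 FPKM) and *brp* (0.0647 and 3.06 FPKM), while *nSyb* and *Syt1* were under 1 FPKM in both. The part of these markers in the *tau* value was not tested. *Jupiter*, the most abundant, had 400 FPKM in S2 and 582 FPKM in SIN3 187HA cells. Of 7 genes of the gamma tubulin complex above the minimum (median 0.16), *Grip91*, listed as *l(1)dd4*, was just past 2-fold lower (19.0 and 9.37 FPKM). It was within 2-fold with all log2 ratios centred on the median of all genes.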

How the data were processed

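RNA-seq of S2 and SIN3 187HA cells, 3 biological replicates each, was used as 1 deposited table. The authors sequenced paired reads of 50 bp, aligned them to dm3 with Bowtie2 and Tophat, and estimated levels over RefSeq genes with Cufflinks and cuffdiff. Tool versions are not given in the sources used here. The authors deposited 1 FPKM value per gene and group, scaled across libraries by cuffdiff. The columns of the authors' own comparison (fold change, test statistic, p-value, q-value and call) were not used. Per-library values were not analysed here. Depth was only estimated from the lowest steps, taking the 3 libraries of a group as equal. Multi-mapped reads can move values between similar isotypes.

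From the FPKM values, log2 ratios of SIN3 187HA over S2 were computed without a pseudocount in Python 3.11.15 (pandas 2.3.3) for rows with a mean of at least 1 FPKM and above 0 in both groups. 109 rows over that minimum were listed at 0 in 1 group and left out. Only the log2 ratio formula was checked, on values built from known ratios. The filter, shares, neighbour medians and fragment estimates were not checked in this way. Fragment numbers are estimates. FPKM times transcript length in kb (Ensembl 115, less 200 nt) was divided by its lowest step, the median of values up to 0.03 over genes whose only transcript exceeds 1500 nt. That annotation is on BDGP6, not dm3, and gave no coordinates. Loci are dm3, counted from 1. The 2-fold limit is the one the study used for these cells, here without its test.

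Members and gene lists were chosen with earlier results of these data known. Genes named beside the 10 are *Sin3A*, the other isotypes, nearest neighbours and, from each list, the gene with the highest mean FPKM (called the most abundant) and genes past 2-fold with a mean of at least 10 FPKM, unless stated. In the motor list the dynein gene was corrected to *sw* after the values had been read. All list symbols were matched to rows, some by a RefSeq synonym.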

Additional observations from a re-analysis of the deposited data

How the results depend on the processing

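The calls of the 8 isotypes and the sign of their log2 ratios were the same with a pseudocount of 1 or 0.1 FPKM, with log2 ratios centred on the median of all genes, with equal FPKM sums and with rows of 1 gene only. *betaTub97EF* ran from -4.73 to -4.16 over these settings and *Act87E* from 1.39 to 3.36. The number of isotypes past 2-fold, 2 as reported, was 1 with a mean of at least 10 FPKM, because *Act87E* is below it, and 3 with no minimum, where *Act57B* entered at -1.33. The number of all genes past 2-fold, 1994 as reported, was 3675 with no minimum, 1026 with a mean of at least 10 FPKM and 3415 with 1.5-fold as the limit. Of 440 alternative values over 69 results, 395 stayed within the set tolerance and 45 moved beyond it. The direction of a called value changed in 0 of them. That tolerance was wide, as the *Act87E* value of 1.39 lay within it. Some uncalled values changed sign. The median of the sarcomere list was 0.36 as reported and -0.26 with a mean of at least 10 FPKM. The neighbour medians of *betaTub97EF* and *betaTub60D*, -0.12 and -0.15, were 0.10 and 0.07 with 25 genes on each side. The values that moved were mainly counts of small lists. No paired analysis was possible because the table holds 1 combined value per group, and for the same reason no replicate could be left out. Depth limits *Act57B*, *Act79B* and *Act87E*, which in S2 are roughly 24.3 fragments, listed at 0 and roughly 14.7 fragments.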
